A study of Daphnia magna with 45 samples.

Results

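Isoprenaline at 100 mg/L was compared with no exposure in whole female Daphnia magna after 6 h, by RNA sequencing of 3 isoprenaline libraries and 3 control libraries. These are 6 of the 45 libraries of the series, taken by their titles. All animals were of strain Xinb3 and 5 days old, and they were exposed in groups of 20 in 35 mL. The control received neither compound, and the isoprenaline group received no propranolol. Other groups, used here as libraries outside the comparison, received propranolol alone (1 or 4 mg/L) or both compounds together (propranolol 1 mg/L, isoprenaline 100 mg/L, called the mixture), and were sampled at 1 to 24 h. Isoprenaline alone was sampled at 1 and 6 h. The labels do not say whether libraries of a group came from separate cultures, so the p-values speak for the variation among libraries, part or all of which may be technical.

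Isoprenaline is a synthetic catecholamine that activates the beta-adrenergic receptors of vertebrates. Those receptors act through G proteins and adenylate cyclase, which makes cyclic AMP, and in the vertebrate heart their activation raises rate and force. Propranolol blocks the same receptors. Arthropods use octopamine and tyramine in place of adrenaline and noradrenaline, and their receptors for these amines are related to the adrenergic ones. The series asks how such compounds change the heart of Daphnia and the expression of genes in the whole body.

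Values are CPM, the reads of a transcript ID scaled to a library total of 1000000. Totals of the 6 libraries ran from 16.9 to 21.2 M reads, and each library had 14 to 137 of the 19159 IDs at 0. A floor of 3 reads stands for 0.142 to 0.177 CPM, which covers counting error only. None of the IDs matched the 28335 genes of the reference table and the files do not pair them with gene names (0 IDs matched). No gene, pathway or marker of a tissue can therefore be named, and the adrenergic, octopamine and cyclic AMP genes of the background above could not be counted. In whole animals, fewer cells of a type and less RNA per cell cannot be told apart.

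One control library stood apart. Control replicate 1 correlated more with the isoprenaline libraries (Pearson's r of log2 CPM across IDs of 0.959, 0.964 and 0.934) than with control replicate 2 (0.918), and it stood at 0.942 with control replicate 3. Control replicates 2 and 3 correlated with the isoprenaline libraries at 0.813 to 0.879. The isoprenaline libraries were close to each other (0.964 to 0.988). The median SD of log2(CPM + 1) over all IDs was 0.319 in the control group and 0.151 in the isoprenaline group. Results are given below with all 6 libraries and with each left out.

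After 6 h, 291 IDs were lower with isoprenaline than in the control and 31 were higher. These are calls at a limma adjusted p under 0.05 and make up 1.52% and 0.162% of the 19159 IDs tested, 1.68% together. An unadjusted p under 0.05 was met by 4298 IDs (22.4%). The median log2 change was -1.54 over the lower IDs and 0.81 over the higher ones, against -0.043 over all IDs, on the log2(CPM + 1) scale. Of the lower IDs, 233 differed by at least 2-fold, 82 by at least 4-fold and 23 by at least 8-fold. Of the higher IDs, 11 differed by at least 2-fold and 1 by at least 4-fold. The 3 isoprenaline libraries lay on one side of the 3 controls in all 322 IDs called, where 37.9% of all IDs tested did so. Those same libraries chose the 322 IDs, so nothing is read from that count.

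The quasi-likelihood test of edgeR on the recovered reads called 304 IDs (1.59%), 49 higher (0.256%) and 255 lower (1.33%), and 262 of them were among the 322. Called lower IDs were spread over the range of levels, from 1.41% of the IDs with a mean under 1 CPM and 1.92% of those at 1 to 5 CPM to 0.966% of those at 100 to 500 CPM. Called higher IDs were mostly at 5 to 500 CPM, with 0 of the 1704 IDs under 1 CPM and 6 of the 1346 IDs at 100 to 500 CPM. Of the 262 IDs at 500 CPM or more, 0 were called higher and 1 lower (0.382%). The median level over the 6 libraries was 9.2 CPM for the lower IDs, 40.2 CPM for the higher IDs and 13.1 CPM for all IDs. In 19 of the 291 lower IDs every isoprenaline library held 3 reads or fewer, and in 3 every one held 0.

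**Figure D1:**
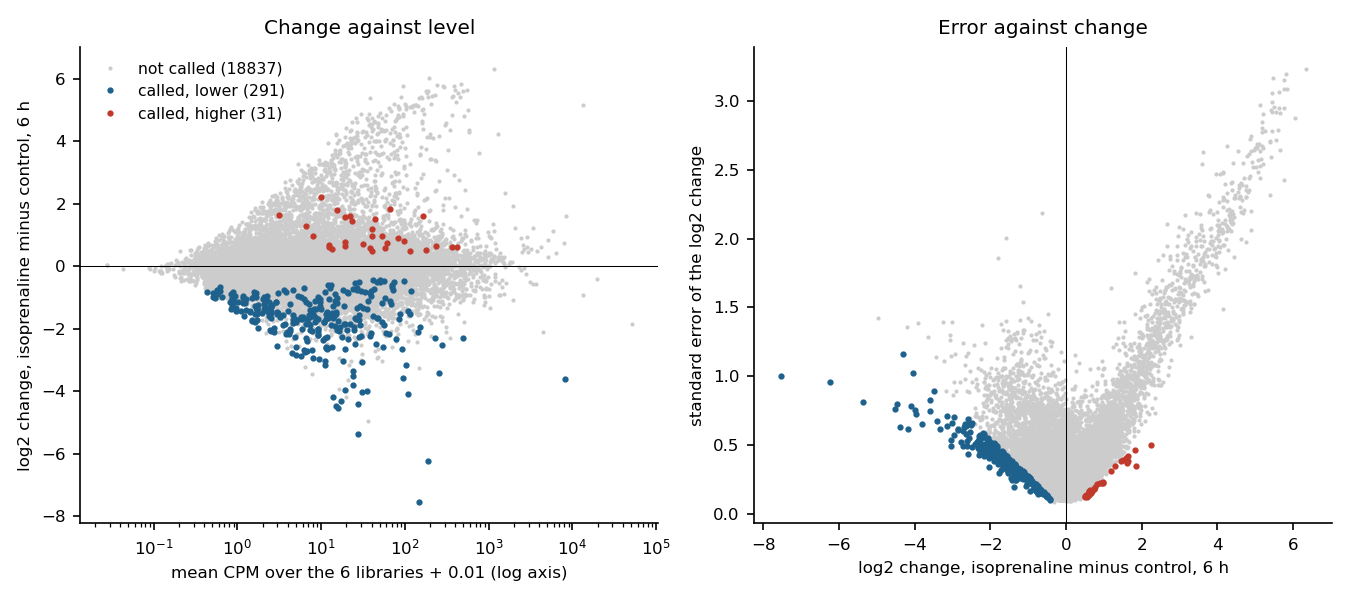
Left, log2 change of each ID (isoprenaline minus control at 6 h) against its mean CPM over the 6 libraries plus 0.01, on a log axis. Right, the standard error of that change against the change. The 291 lower and 31 higher calls have changes that are large for their standard errors, and the higher ones reach 2.24. The IDs with the largest rises, up to 6.33, have large standard errors and were not called.

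The number of calls and their balance depended on single libraries. Without control replicate 1 there were 1369 calls, 584 higher and 785 lower, so that 57.3% were lower, against 90.4% with all 6 libraries. Without control replicate 2 there were 8, all lower, and without control replicate 3 there were 49, all lower. Leaving out isoprenaline replicate 1, 2 or 3 gave 45, 55 and 40 calls, of which 44, 53 and 38 were lower. With only the 2 groups compared in the fit there were 2082 calls (959 higher, 1123 lower), and with 1 surrogate variable 75 (6 higher, 69 lower). Of the 291 lower IDs 217, and of the 31 higher IDs 28, were called in 1 of the 6 fits with a library left out. Their directions could not turn in those fits, since the libraries of the groups did not overlap in any of them. Of the 322, 315 were called without control replicate 1. Among the 291 lower IDs, control replicate 1 was the lowest control in 229 and control replicate 2 the highest in 197. Among the 31 higher IDs, control replicate 1 was the highest control in 30.

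**Figure D2:**
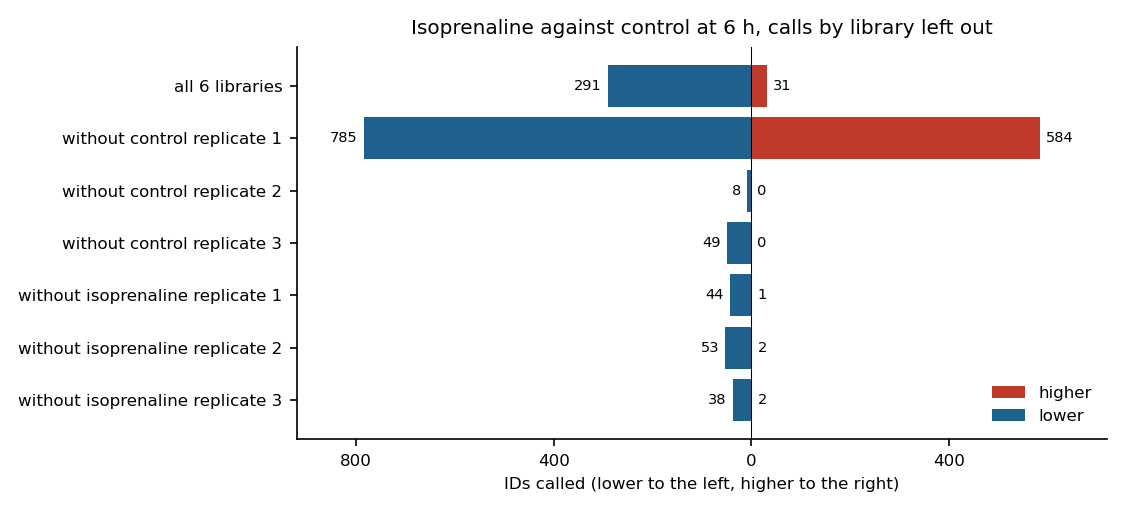
Number of IDs called higher (right of 0) or lower (left of 0) with isoprenaline than in the control at 6 h, with all 6 libraries and with each left out. Lower calls outnumber higher ones in every fit, and the total runs from 8 without control replicate 2 to 1369 without control replicate 1.

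Of the lower IDs, 8 passed in all 6 fits. The naming rule takes the IDs with the most such passes, then the largest change, and allows 2 that fell and 2 that rose because the IDs have no gene names. Dapma7bEVm016578t1 was at 75.0, 558.1 and 245.9 CPM in the 3 control libraries and at 0.142, 0.115 and 0.289 CPM in the 3 isoprenaline libraries. Every control was far above every isoprenaline library, and the isoprenaline libraries held 3, 2 and 5 reads. The log2 change was -7.54 (SE 0.999, limma adjusted p 0.000316). Its share of pooled reads was 1666-fold lower (906 to 3475, counting error only), and 948-fold lower without control replicate 2.

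Dapma7bEVm021384t1 was at 111.3, 687.5 and 311.3 CPM in the control and at 3.85, 2.18 and 2.66 CPM with isoprenaline. Control replicate 2 was again the highest and replicate 1 the lowest, and no isoprenaline library came near any control. The log2 change was -6.24 (SE 0.957, limma adjusted p 0.000906), and the ratio of pooled shares was 127-fold (109 to 149, counting error only), or 75.2-fold without control replicate 2. With libraries left out in turn the log2 changes ran from -8.30 to -6.86 for Dapma7bEVm016578t1 and from -6.92 to -5.61 for Dapma7bEVm021384t1. The other 6 of these IDs had control means of 1.67 to 55.2 CPM and isoprenaline means of 0.0158 to 2.52 CPM. Their log2 changes were -5.37 to -0.96 (limma adjusted p 0.000392 to 0.00316). All 8 were also called by edgeR, which called 1.33% of all IDs lower. The 8 were chosen on these same libraries, so nothing is read from that count.

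The higher IDs were less stable. Dapma7bEVm010955t1 was at 50.8, 22.3 and 18.5 CPM in the control and at 97.4, 103.9 and 103.7 CPM with isoprenaline. The isoprenaline libraries were close together and all above the controls, of which replicate 1 was the highest. The log2 change was 1.84 (SE 0.343, limma adjusted p 0.00541), and it passed in 4 of the 6 leave-one-out fits, missing the threshold without control replicates 2 and 3 (adjusted p 0.0733 and 0.0637). The pooled share was 3.46-fold higher (3.27 to 3.65, counting error only).

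Dapma7bEVm007881t1 was at 11.6, 8.19 and 11.0 CPM in the control and at 40.3, 40.1 and 23.0 CPM with isoprenaline. Isoprenaline replicate 3 was lower than the other two and still above every control. The log2 change was 1.63 (SE 0.382, limma adjusted p 0.0243, edgeR 0.0214). It passed without control replicate 1 and without isoprenaline replicate 3, and missed the threshold in the other 4 fits (adjusted p up to 0.166), with log2 changes of 1.49 to 1.89 in all 6. With 1 surrogate variable it missed it as well (log2 change 1.44, limma adjusted p 0.0874).

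**Figure D3:**
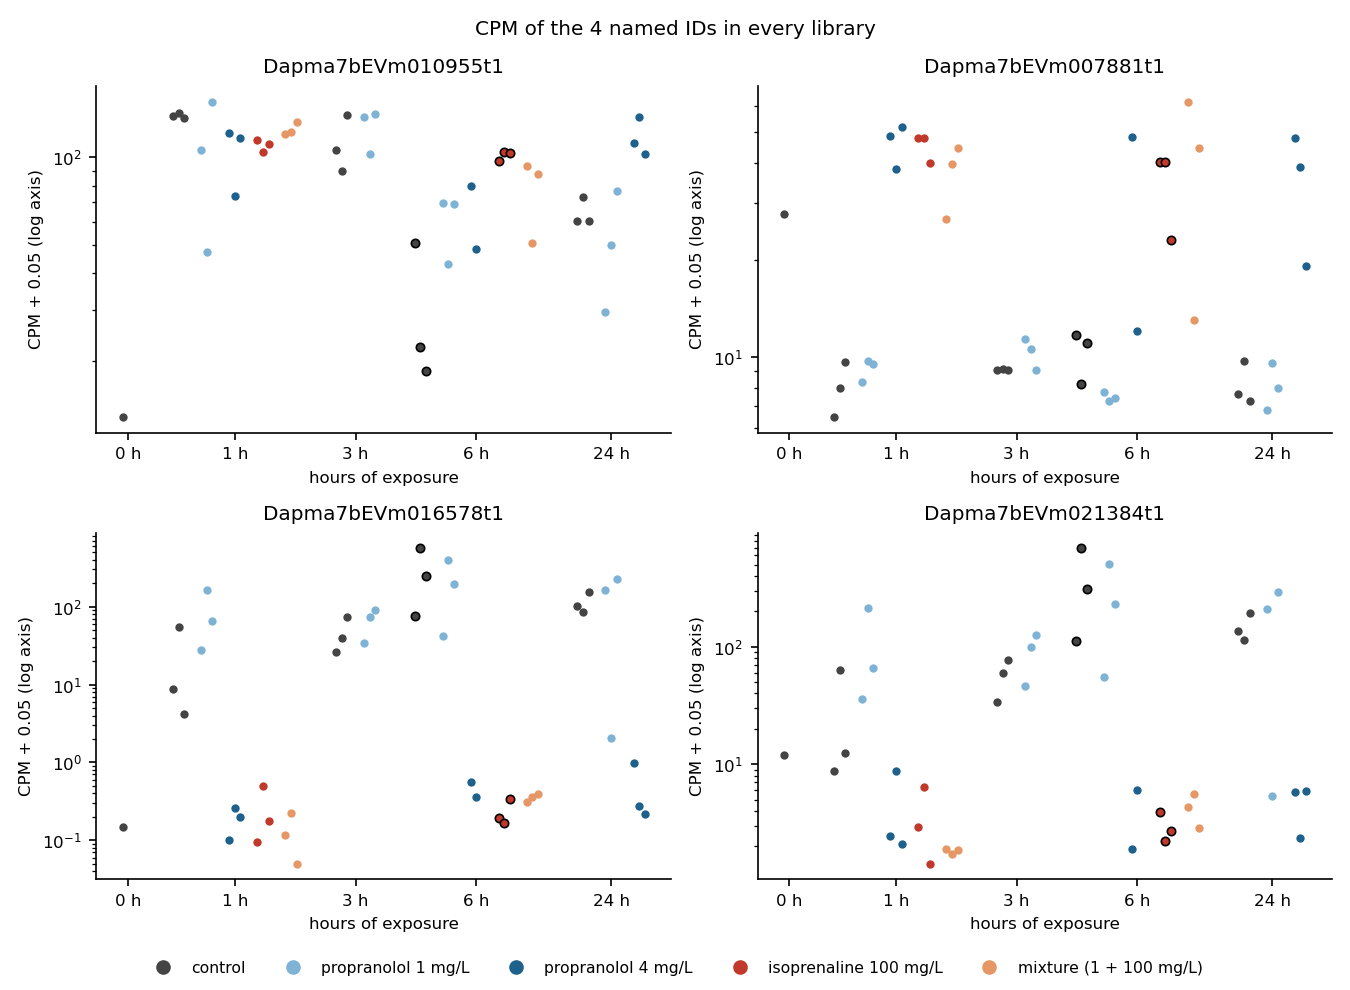
CPM plus 0.05 (log axis) of the 4 named IDs in every library, by hours of exposure and coloured by exposure. Points with a black edge are the 6 libraries compared. The 2 lower IDs are at 8.63 CPM or less in every isoprenaline, mixture and propranolol 4 mg/L library. Some other libraries also lie under that level, such as propranolol 1 mg/L replicate 2 at 24 h (1.98 and 5.26 CPM). Dapma7bEVm007881t1 is at 23.0 CPM or more in every isoprenaline library of 1 and 6 h. It is also at 38.3 to 51.6 CPM in the propranolol 4 mg/L libraries of 1 h.

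The mixture and propranolol 1 mg/L at 6 h gave the same addition of isoprenaline in 6 libraries outside the comparison. The mixture was lower than propranolol 1 mg/L in 287 of the 291 lower IDs (98.6%), where 44.7% of all IDs tested were lower. Of the 291, 83 passed the limma test as lower there (28.5%), against 0.679% of all IDs, and 243 had an unadjusted p under 0.05 as lower, against 6.7% of all IDs. All 31 higher IDs were higher in the mixture, where 55.3% of all IDs were, and 8 passed (25.8%, against 0.188% of all IDs), with 23 at an unadjusted p under 0.05, against 5.17% of all IDs. Median log2 changes were -1.12 over the lower and 0.70 over the higher IDs, against 0.041 over all IDs. Both comparisons share a fit, and the animals of one also had propranolol. The calls of the mixture comparison also rested on single libraries, with 166 in all and 7 without mixture replicate 1 and 53 without mixture replicate 3. Leaving out propranolol 1 mg/L replicate 2 gave 29 and leaving out its replicate 3 gave 41, and there were 0 with only the 2 groups compared in the fit (1437 at an unadjusted p under 0.05).

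All 8 IDs that passed in every fit were called lower in the mixture than in propranolol 1 mg/L as well. Dapma7bEVm016578t1 was at 41.7, 397.8 and 193.6 CPM with propranolol 1 mg/L and at 0.259, 0.307 and 0.338 CPM in the mixture. The log2 change was -6.84 (SE 0.999, limma adjusted p 0.00128). Dapma7bEVm021384t1 was at 54.8, 508.9 and 229.6 CPM against 4.27, 5.52 and 2.83 CPM. Its log2 change was -5.20 (SE 0.957, limma adjusted p 0.00533). Both IDs again had no overlap between the groups.

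The named higher IDs parted here. Dapma7bEVm007881t1 was at 7.70, 7.21 and 7.40 CPM with propranolol 1 mg/L and at 61.9, 12.9 and 44.6 CPM in the mixture, which gave a log2 change of 2.02 (limma adjusted p 0.00686, SE 0.382). Mixture replicate 2 was the lowest of its group, though above every propranolol library. Dapma7bEVm010955t1 was at 69.5, 42.9 and 69.2 CPM with propranolol 1 mg/L and at 93.0, 50.9 and 87.6 CPM in the mixture. These groups overlapped, and the log2 difference of 0.33 (SE 0.343, limma adjusted p 0.816) did not pass.

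Whether isoprenaline acted differently without propranolol was tested directly. The effect at 6 h alone minus the effect beside propranolol 1 mg/L passed in 0 IDs (0.0%) with limma and in 0 with edgeR, with 470 (2.45%) and 492 at an unadjusted p under 0.05. The median 95% interval, before adjustment, reached 0.806 either side on the log2 scale, and 1.049 over the lower IDs. It is not the limit of detection, since larger differences also missed the threshold after adjustment over all IDs. For Dapma7bEVm010955t1 the difference was 1.51 (95% interval 0.52 to 2.50, limma adjusted p 0.892).

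**Figure D4:**
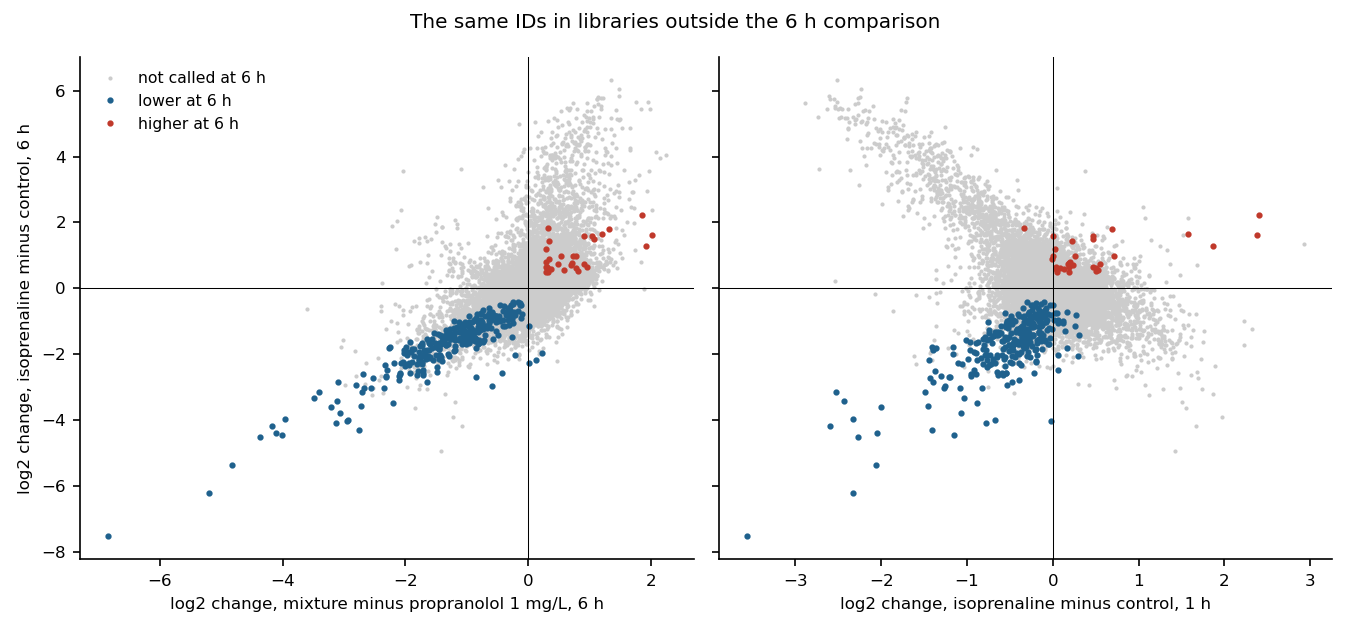
Log2 change at 6 h (isoprenaline minus control, vertical axis) of each ID against its change in libraries outside that comparison: mixture minus propranolol 1 mg/L at 6 h (left) and isoprenaline minus control at 1 h (right). Of the 291 lower IDs, 287 lie left of 0 in the left panel and 274 in the right panel.

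At 1 h, again in other libraries, 274 of the 291 lower IDs (94.2%) were on the lower side with isoprenaline and 27 of the 31 higher IDs (87.1%) on the higher side, where 52.5% of all IDs tested were lower and 47.5% higher. Median log2 differences were small, at -0.395 over the lower and 0.221 over the higher IDs. None of the 291 passed the limma test at 1 h (0 calls among all 19159 lower, 0.0%), and 55 had an unadjusted p under 0.05, against 0.986% of all IDs. Of the higher IDs 2 passed, where 3 of all IDs did (0.0157%), and edgeR called 1 ID at 1 h. With libraries left out in turn the 1 h count was 0 or 1. Libraries did not overlap in the direction of the 6 h call in 84 of the 291 lower IDs (5.13% of all IDs) and 14 of the 31 higher IDs (5.66%).

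Dapma7bEVm007881t1 was at 6.44, 7.92 and 9.55 CPM in the control at 1 h and at 47.9, 47.9 and 40.0 CPM with isoprenaline. All isoprenaline libraries were above all controls, and the log2 change was 2.38 (limma adjusted p 0.0118, SE 0.382). The ID thus passed in the comparisons at 1 h, at 6 h and in the mixture at 6 h, which share no library with each other. In the single control library at 0 h it was at 27.7 CPM, above every control library of later hours.

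Dapma7bEVm016578t1 was at 8.80, 55.0 and 4.17 CPM in the control at 1 h and at 0.0454, 0.445 and 0.129 CPM with isoprenaline. The groups did not overlap, but the log2 difference of -3.57 (SE 0.999, limma adjusted p 1) did not pass after adjustment. The control was at 26.3 to 73.2 CPM at 3 h, 75.0 to 558.1 CPM at 6 h and 84.2 to 154.2 CPM at 24 h, and the 0 h library was at 0.1 CPM. Its mean was thus highest at 6 h. Isoprenaline libraries stayed under 0.5 CPM at 1 and 6 h. Dapma7bEVm021384t1 was at 8.75 to 63.7 CPM in the control at 1 h, 33.6 to 77.6 CPM at 3 h, 111.3 to 687.5 CPM at 6 h and 114.3 to 195.5 CPM at 24 h, against 1.37 to 6.30 CPM with isoprenaline at 1 h. Its control mean was also highest at 6 h, but its 0 h library, with 241 reads, lay within the range of the 1 h controls.

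Dapma7bEVm010955t1 differed from these. It was at 138.7, 142.2 and 136.2 CPM in the control at 1 h and at 114.9, 104.3 and 110.8 CPM with isoprenaline, so that isoprenaline libraries were all below the controls at 1 h and all above at 6 h. The control ran from 90.0 to 139.2 CPM at 3 h, from 18.5 to 50.8 CPM at 6 h and from 60.5 to 73.3 CPM at 24 h, while isoprenaline libraries were at 97.4 to 103.9 CPM at 6 h. The single 0 h library was at 12.8 CPM, below every control of 6 h. The 1 h difference of -0.34 (SE 0.343, limma adjusted p 1) did not pass.

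The effect of isoprenaline at 6 h minus that at 1 h passed in 0 IDs (0.0%) with limma, with 1837 (9.59%) at an unadjusted p under 0.05, and in 0 with edgeR, with 1898. The median 95% interval, before adjustment, reached 0.806 either side, and larger differences also missed the adjusted threshold. A difference between the hours is therefore not shown for any ID, although 322 passed at 6 h and 3 at 1 h.

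The lower IDs were also set against all 45 libraries, as a description. Over the 291 IDs, the median level in a library was 10.2, 18.2 and 15.5 CPM in the control at 6 h and 3.13, 2.87 and 2.37 CPM with isoprenaline. These libraries chose the IDs, so that gap is no finding. In libraries of neither group, which entered the choice only through the shared estimate of the spread, it was 2.66 to 4.47 CPM in the mixture at 6 h and 7.54 to 14.7 CPM with propranolol 1 mg/L at 6 h, with no overlap. Isoprenaline at 1 h, at 2.32 to 4.89 CPM, overlapped the control at 1 h, at 4.07 to 7.19 CPM.

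Propranolol at 4 mg/L, another compound at another dose, had 1.39 and 4.96 CPM at 6 h. It had 2.05 to 4.55 CPM at 1 h. At 24 h it had 2.72 to 4.94 CPM, against 11.8 to 14.3 CPM in the control. Of the named IDs, the 2 propranolol 4 mg/L libraries at 6 h held Dapma7bEVm016578t1 at 0.514 and 0.314 CPM and Dapma7bEVm021384t1 at 1.85 and 5.96 CPM. They held Dapma7bEVm010955t1 at 80.0 and 48.4 CPM, and Dapma7bEVm007881t1 at 30.1 ± 25.6 CPM (SD, n = 2). For Dapma7bEVm007881t1 both libraries were above every control library at 6 h, the higher at 48.2 CPM. Propranolol 4 mg/L libraries at 1 h held this ID at 38.3 to 51.6 CPM, against 6.44 to 9.55 CPM in the control. Those at 24 h held it at 19.1 to 47.6 CPM, against 7.21 to 9.66 CPM in the control. These differences were not tested, and no comparison with isoprenaline is made since compound and dose both differ. The lower IDs together took 1.75% to 3.27% of the reads in the control at 6 h and 0.375% to 0.413% with isoprenaline. One abundant ID made up 58.2% of that share in the control, and the other 290 took 0.724% to 1.40% and 0.258% to 0.284%. For the 31 higher IDs the median level was 36.8, 21.1 and 18.5 CPM in the control at 6 h and 48.6, 46.4 and 50.3 CPM with isoprenaline. Those 6 libraries chose both sets, so these gaps in share and in level are no finding. In other libraries at 6 h the higher IDs were at 43.1 to 54.8 CPM in the mixture and 27.7 to 42.0 CPM with propranolol 1 mg/L. Isoprenaline at 1 h had 42.3 to 47.9 CPM. Propranolol 4 mg/L had 38.5 to 47.5 CPM at 1 h and 46.5 and 35.1 CPM at 6 h. At 24 h it had 43.2 to 49.7 CPM, against 29.8 to 34.9 CPM in the control. Control replicate 1 at 6 h was near the 1 h controls, which were at 36.7 to 39.9 CPM.

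The largest rises in the mean were not calls. At 6 h 611 IDs were at least 4-fold and 295 at least 8-fold higher with isoprenaline than in the control, and 1 and 0 of them were called by limma and likewise 1 and 0 by edgeR. Of the 295, 79 had an unadjusted limma p under 0.05, and the smallest adjusted p was 0.126. Libraries did not overlap in 294 of the 295, where 15.0% of all IDs tested had isoprenaline above the control without overlap, but the IDs were picked for their rise in these same libraries and nothing is read from that count. The median SE of their log2 change was 2.06, against 0.279 over all IDs. On the lower side 35 IDs were at least 8-fold lower, and 23 of these were called. These 295 IDs were chosen on their values in the 6 libraries and are described without a test.

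The 295 IDs together took 7.68%, 6.33% and 9.41% of the reads in the isoprenaline libraries at 6 h and 1.46%, 0.124% and 0.136% in the controls. Control replicate 1 was the highest of the controls and below every isoprenaline library. Across all 45 libraries the share was under 0.5% in 17, from 0.706% to 1.84% in 3, and from 5.06% to 13.0% in 25. Libraries at both ends occurred within 11 of the 15 groups that had more than 1 library. In the control it was 6.03% to 11.6% at 1 h, 0.25% to 9.50% at 3 h and 0.0743% to 6.27% at 24 h. With isoprenaline at 1 h it was 11.6%, 0.0628% and 9.70%.

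The share of these 295 IDs differed between the groups at 6 h by the way they were chosen, and its part in the 322 calls was not tested. In the mixture at 6 h it was 0.706%, 0.0857% and 8.57%, and the median level of the 291 lower IDs in the same libraries was 2.81, 4.47 and 2.66 CPM. With propranolol 1 mg/L at 6 h it was 7.16%, 0.124% and 0.17%, and the 291 IDs were at 7.54, 14.7 and 13.8 CPM. The median of the lower IDs was thus lower in each mixture library than in each propranolol 1 mg/L library. Within either group the 291 IDs were lowest in the library with the largest share of the 295. Whether the level and the share are linked was not tested.

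**Figure D5:**
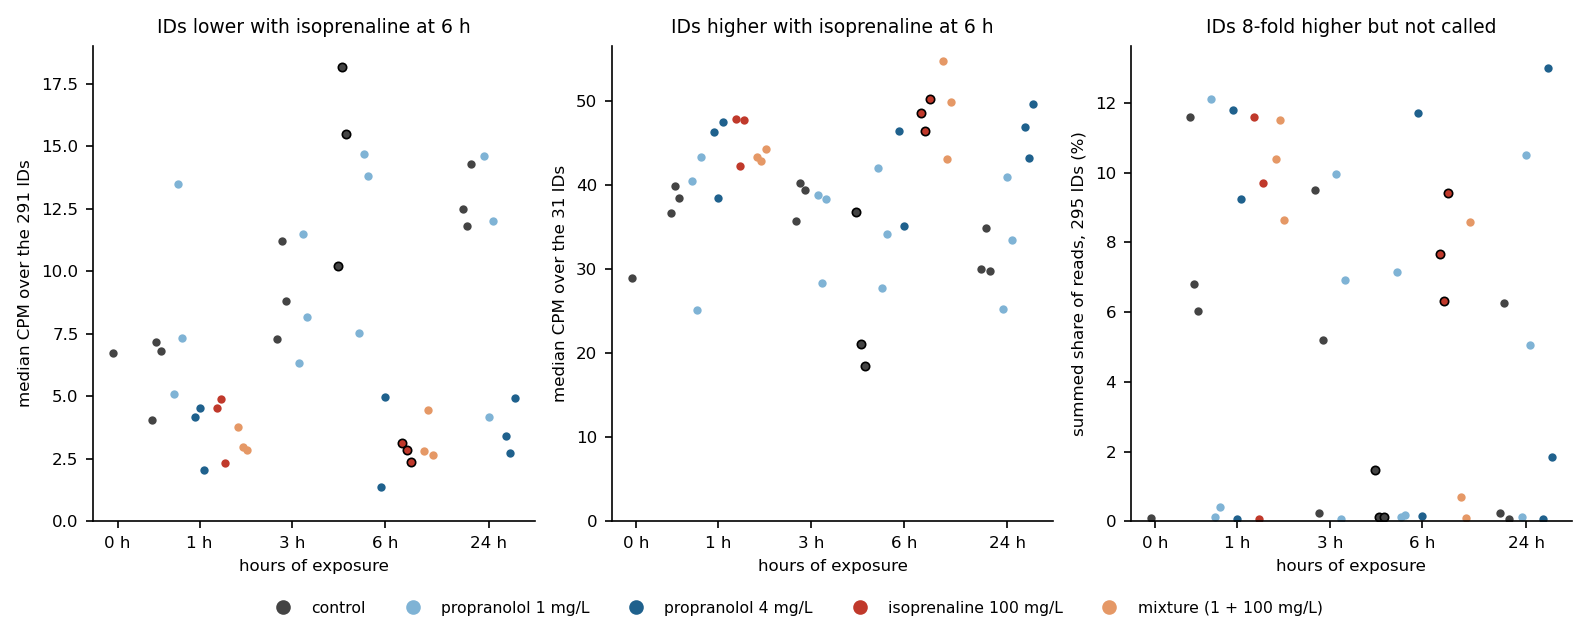
Values in every library by hours of exposure, coloured by exposure, with a black edge for the 6 libraries compared: the median CPM over the 291 lower IDs (left) and over the 31 higher IDs (middle), and the summed share of reads of the 295 IDs that were at least 8-fold higher but not called (right). The shares on the right are at 1.84% or less or at 5.06% or more, also within groups.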

How the data were processed

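Messenger RNA of whole Daphnia magna was sequenced in 45 libraries in 16 groups, with a stranded kit and an input of 500 ng RNA, per the labels' protocols. The authors deposited CPM per transcript ID. HTSeq, edgeR, Bowtie2 2.1.0 and Trim Galore 0.3.2 are named in the submitters' processing notes, and neither a genome build nor an annotation is given in the sources used here. Each column summed to 1000000. All 862155 values (100%) were whole multiples of the step of their library within 0.01 read, so reads were recovered, with totals of 13.5 to 43.7 M. Pairs of libraries within the 2 groups compared had a chi-square per degree of freedom of at least 17.2, well above sampling noise, and none was treated as a duplicate.

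Comparisons were tested in R 4.3.3 with limma 3.58.1, with its trend and robust settings, on log2(CPM + 1), as two-sided contrasts in a fit of 16 group means, with Benjamini-Hochberg adjustment over all 19159 IDs in each comparison. This scale understates the change of low IDs. IDs needed at least 1 CPM in at least 3 libraries, which all 19159 passed. Alternatives were a pseudocount of 0.25, no filter, a mean of at least 5 CPM, a fit limited to the groups compared, a block for the replicate number, median log-ratio scaling, edgeR 4.0.16 (quasi-likelihood, TMM) on the recovered reads, 1 surrogate variable (sva 3.50.0) and each library left out in turn. Correlations between effects with each library left out were added after seeing the data.

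Named IDs were calls with no overlap between groups and a mean of at least 5 CPM over the 6 libraries (30 higher, 187 lower), ranked by passes with a library left out and then by change. The comparison and this rule were chosen with earlier results of these data known. Intervals of ratios are exact binomial at the 95% level. The steps were tested on simulated data.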

Additional observations from a re-analysis of the deposited data

Results flagged for a closer look

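For Dapma7bEVm010955t1, every isoprenaline library was above every control library at 6 h and below every control library at 1 h. The 1 h difference of -0.34 (95% interval -1.03 to 0.36, limma adjusted p 1) did not pass. The effect at 6 h minus that at 1 h was 2.18 on the log2 scale (SE 0.485, 95% interval 1.19 to 3.17, unadjusted p 8.9e-05). It did not pass after adjustment over all IDs (limma adjusted p 0.411). Of the 31 higher IDs, 1 had libraries that did not overlap in the opposite direction at 1 h, where 5.13% of all IDs had such a fall at 1 h, and of the 291 lower IDs 0 did.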

How the results depend on the processing

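At 6 h the lower calls outnumbered the higher ones in the main comparison under all 14 alternatives. The alternative with no filter could not differ, since every ID passed the filter. The count of 322 was 187 at a mean of at least 5 CPM, 2082 with the fit limited to the compared groups (959 higher, 1123 lower) and 75 with 1 surrogate variable, and 8 to 1369 with libraries left out. The mixture against propranolol 1 mg/L gave 166, but 0 with only the compared groups, 259 with edgeR, 348 with 1 surrogate variable and 7 to 211 with libraries left out. Isoprenaline at 1 h gave 3, but 0 with only the compared groups, 1 with edgeR, 6 with 1 surrogate variable and 0 to 1 with libraries left out. The contrast between the hours gave 0 throughout, and that between isoprenaline alone and beside propranolol 0 to 2. The causes of these shifts were not tested.

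The replicate number as a block gave 634 calls at 6 h (81 higher, 553 lower), 215 for the mixture and 1 at 1 h. Nothing in the labels makes this number a pairing. Deviations of same-numbered isoprenaline and control libraries at 6 h correlated at -0.181, 0.249 and 0.0434, and replicates 1 and 3 each correlated best with another number. For the mixture and propranolol 1 mg/L at 6 h the values were 0.0288, 0.696 and -0.665. For isoprenaline and control at 1 h they were 0.407, 0.313 and -0.223. Replicate 2 had the lowest share of the 295 IDs in every group at 6 h and the highest in every group at 24 h. At 1 h the order differed between groups. Whether libraries of one number share a batch was not tested. The r of -0.507 between hours was -0.661 to 0.469 with libraries left out, and positive only without isoprenaline replicate 2 at 1 h.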

Other observations

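Across all 19159 IDs, the isoprenaline effects at 6 h and 1 h, from libraries that do not overlap, had a Pearson's r of -0.507, and 41.0% of IDs had the same sign. These values turned with 1 library: without isoprenaline replicate 2 at 1 h the r was 0.469 and 64.6% of IDs had the same sign. Leaving out any of the other 11 libraries gave r of -0.661 to -0.336. In isoprenaline replicate 2 at 1 h the 295 IDs that were at least 8-fold higher at 6 h took 0.0628% of the reads, the lowest share of all 45 libraries. These IDs were chosen on the 6 h effect, and their part in the r was not tested. IDs are not independent replicates, and libraries of both hours differ in the share of abundant IDs, so the r describes these libraries.

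The effect of isoprenaline at 6 h alone and beside propranolol 1 mg/L had an r of 0.59 across all IDs. It ran from 0.147 without mixture replicate 3 to 0.822 without propranolol 1 mg/L replicate 1. In these 2 libraries the 295 IDs took 8.57% and 7.16% of the reads, and the part of that share in the r was not tested.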
